A study of Homo sapiens with 4 samples.

Results

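The 10 amino acid transporters SLC38A1, SLC38A2, SLC38A5, SLC38A9, SLC1A4, SLC1A5, SLC3A2, SLC7A1, SLC7A5 and SLC7A11 were followed in RNA sequencing of a B cell lymphoma line with and without disruption of GNA13, the gene of the G protein subunit Gα13. They were chosen as plasma membrane and lysosomal carriers by name, and every gene in the deposited expression values with 1 of these symbols was taken. All 10 were found among 25066 genes, and all 10 were among the 16945 that were tested, a gene being tested where 2 or more libraries exceeded the lowest value of the list. With GNA13 disrupted and its upstream receptor stimulated, 6 of the 10 transcripts were higher, 1 was lower and 3 did not pass the test. Of all genes tested, 13.1% passed as higher and 16.6% as lower. Among genes at or above the median level, where 9 of the 10 lay, these shares were 26.3% and 21.9%. When every gene in the list was tested, SLC1A4 alone of the 10 passed. The largest rise was in SLC1A4, at 1.72-fold, and the 1 fall, in SLC38A2, was to 0.839 of control.

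Amino acids do not cross membranes unaided, and each carrier has its own substrates and its own driving force. SLC38A1, SLC38A2 and SLC38A5 move glutamine and other small neutral amino acids with sodium, SLC1A4 and SLC1A5 exchange neutral amino acids against each other, and SLC7A1 carries arginine and lysine. SLC3A2 is the glycoprotein heavy chain (CD98) that brings a light chain such as SLC7A5, the leucine carrier that trades intracellular glutamine for essential amino acids, or SLC7A11, the cystine and glutamate exchanger, to the cell surface. SLC38A9 sits on the lysosome, where it carries amino acids and reports arginine to the kinase complex mTORC1, and dividing lymphocytes are known for high uptake of glutamine and leucine.

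The cells were NUDUL1, an established human diffuse large B cell lymphoma line of the germinal center type. In all groups they came from a single-cell clone with doxycycline-inducible Cas9 and carried the transduced thromboxane receptor Tbxa2r, which couples to Gα13. Control cells expressed a control sgRNA and GNA13-deficient cells a GNA13 sgRNA, 1 sgRNA each, and both were treated with 10 nM U46619, a stable thromboxane mimetic, for 24 h. There were 2 libraries per genotype and no untreated cells, so each comparison is between genotypes under the agonist. The labels say that cells were treated in duplicate and name no separate cultures beyond that, so p values measure the spread between these libraries, which may be technical.

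The libraries held 29209544 to 31537955 mapped reads, and the deposited log2 values of low genes stepped in whole reads, so that the reads behind each value could be recovered. GNA13 itself (chr17:63005407-63052858 in hg19, minus strand) had log2 values of 12.46 and 12.45 in control, while the libraries labelled GNA13-deficient had 13.10 and 13.11, a difference of 0.65 (SE 0.05, adjusted p = 0.00214 from limma). Its mRNA was thus not lower where the label says it was disrupted, but the mRNA level alone does not show whether the protein was lost. Every direction here rests on the labels. All 8 B cell markers and all 8 germinal center markers examined passed the filter, although 3 of the latter fell. Among them was BCL6, which fell by 2.49. Markers of other cells were scarce. The 8 T and NK cell markers summed to 7 to 12 reads a library, with CD3D, CD3E, CD2 and TRAT1 at 0 throughout, and the 8 myeloid markers to 259 and 285 reads in control and 69 and 54 in GNA13-deficient libraries, with FCGR3A, S100A8 and S100A9 at 0 throughout. The part of these few transcripts in the results was not tested.

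The question for the transporters was whether their mRNA differed between genotypes when the receptor was engaged. By limma with Benjamini-Hochberg adjustment over all genes tested, SLC1A4, SLC38A5, SLC7A1, SLC1A5, SLC7A5 and SLC3A2 rose and SLC38A2 fell, with adjusted p values from 0.00198 to 0.0473. Of all 16945 genes, 13.1% passed as higher and 16.6% as lower, 29.7% in all. Since 9 of the 10 transporters lay at or above the median level of the genes tested, the nearer background is that of the 8473 genes at or above it, of which 26.3% passed as higher and 21.9% as lower, 48.2% in all, in a fit of their own. A difference above 0, passed or not, was found in 7 of the 10, in 48.1% of all genes tested and in 53.2% of those at or above the median level. In each of the 7 transporters that passed, both libraries of 1 genotype lay beyond both of the other, and in the other 3 the genotypes overlapped. Among all genes tested, 31.3% were higher and 34% lower without overlap, and among those at or above the median level 40% and 34%. In the fit of the genes at or above the median level, 9 transporters were tested, of which 6 were higher and 1 lower. Their median difference was 0.36 on the log2 scale there, against 0.03 for all genes of that fit. In the fit of all genes tested, the median difference of the 10 was 0.33, against -0.02 for all genes. The median size of the difference without its sign was 0.33 against 0.35. The size of the median change was thus close to that of all genes tested, which include genes with few reads. The size without its sign was not compared with that of the genes at or above the median level. In bulk RNA, fewer cells of a type and less RNA per cell cannot be told apart.

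**Figure D1:**
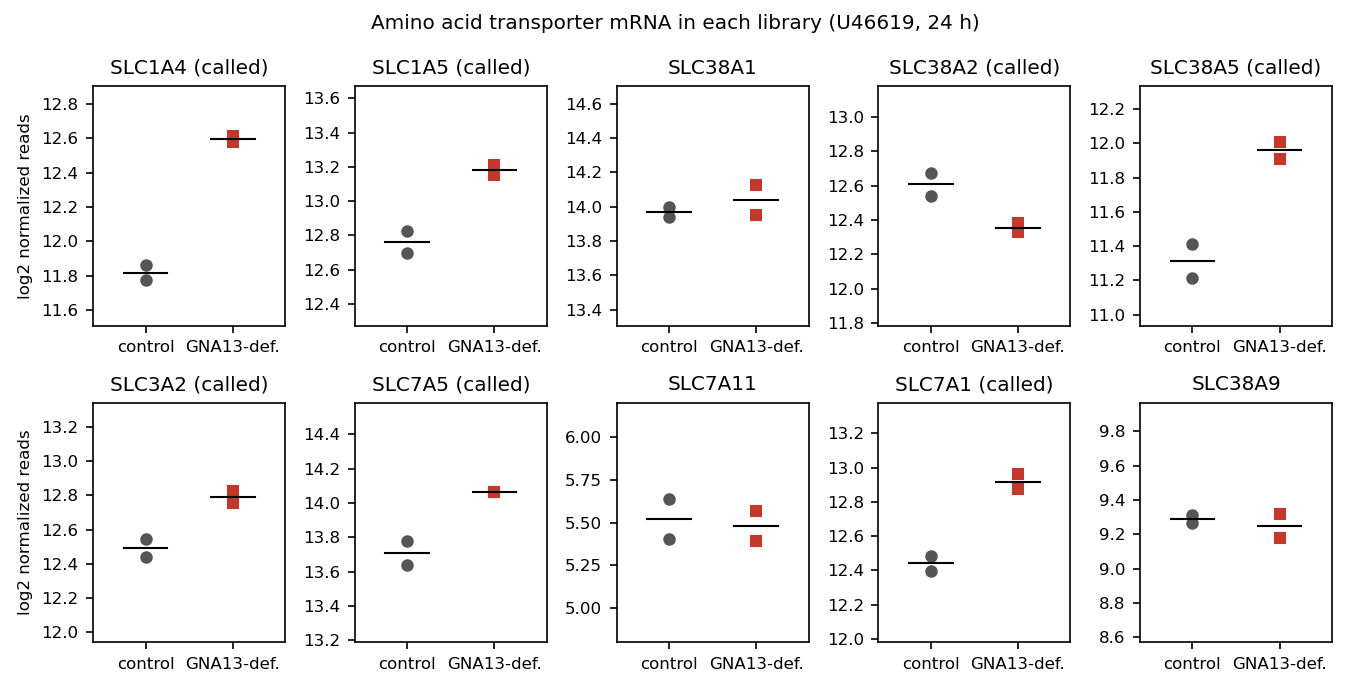
Deposited log2 normalized reads (vertical axis, every panel spanning the same range but starting at its own level) of each transporter in the 2 control libraries (circles) and the 2 GNA13-deficient libraries (squares), with the genotype mean as a line. The word called marks an adjusted p under 0.05, and the symbols of the genotypes are apart in those 7 panels and interleaved in SLC38A1, SLC38A9 and SLC7A11.

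Sequence around the start sites was examined as a property that the choice of genes did not use. RefSeq promoter windows (GRCh38.p14, 250 bases before to 50 after a transcript start) were found for 9 of the 10 genes, 17 windows in all. The letters TGATGNAA, the core of the amino acid response element that ATF4 binds with C/EBP factors, were searched on both strands. They stood in a window of 5 of the 9 genes, against 3.03% of the 11662 tested genes with a window and 3.62% of all 35116 windows. Of these 5 genes, SLC1A4, SLC7A1, SLC1A5 and SLC3A2 were among those that rose and SLC38A1 was not. The matched stretches are shown with the match in capitals, on the strand of the gene, where TTGCATCA and TTACATCA are matches read from the opposite strand.
SLC1A4, chr2:64989362-64989428, plus strand: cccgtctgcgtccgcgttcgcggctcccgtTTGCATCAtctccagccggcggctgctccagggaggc
SLC7A1, chr13:29595659-29595711, minus strand: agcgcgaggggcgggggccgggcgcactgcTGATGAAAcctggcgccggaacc
SLC1A5, chr19:46784874-46784941, minus strand: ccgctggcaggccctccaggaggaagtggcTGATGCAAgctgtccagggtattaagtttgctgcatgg
SLC3A2, chr11:62881719-62881748, plus strand: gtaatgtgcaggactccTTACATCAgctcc
SLC38A1, chr12:46266487-46266550, minus strand: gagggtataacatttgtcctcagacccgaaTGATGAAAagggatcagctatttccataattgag
The matches in SLC38A1 and SLC1A4 lay across the start, at -4 to 4 and -7 to 1 counted from the first transcribed base as 1. That in SLC7A1 lay at 8 to 15, that in SLC3A2 at 38 to 45 and that in SLC1A5 at -97 to -90 of 1 of its 3 windows.

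The letters CACGTG, the E-box that MYC binds with MAX, stood in a window of 3 of the 9 genes, against 12.2% of tested genes with a window. These were SLC7A5, SLC38A5 and SLC1A5, all of which rose, and the match is again in capitals.
SLC7A5, chr16:87869602-87869667, minus strand: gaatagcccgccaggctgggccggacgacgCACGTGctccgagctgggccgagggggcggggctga
SLC38A5, chrX:48470431-48470496, minus strand: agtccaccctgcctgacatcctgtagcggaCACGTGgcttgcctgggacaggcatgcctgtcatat
SLC1A5, chr19:46787308-46787373, minus strand: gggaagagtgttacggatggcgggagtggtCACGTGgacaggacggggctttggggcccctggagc
The letters TGACNNNGC, the core of the antioxidant response element, stood in a window of SLC1A5, SLC3A2, SLC7A1 and SLC7A5, against 19.1% of tested genes with a window. No match overlapped another. SLC38A2 and SLC38A9 held none of the 3 sets of letters in these windows. A match describes the letters in the window only.

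The exchangers of the SLC1 family both rose. SLC1A4 (ASCT1, chr2:65215611-65250999 in hg19, plus strand), which exchanges alanine, serine, cysteine and threonine, was at 11.77 and 11.86 on the log2 scale in control and at 12.58 and 12.61 in GNA13-deficient libraries, from 3437 to 5959 reads a library. Both libraries labelled GNA13-deficient lay well above both controls, and the gap between genotypes, 0.72, was many times the gap between replicates. Its difference was 0.78 (SE 0.06, 95% interval 0.63 to 0.93, adjusted p = 0.00198 from limma). Of the 10, SLC1A4 alone passed under all 11 of the other settings tried that kept every library. SLC1A5 (ASCT2, chr19:47278140-47291851, minus strand), a main route for glutamine into dividing cells, was at 12.70 and 12.83 in control and 13.15 and 13.21 in GNA13-deficient libraries. The genotypes did not overlap, and the difference was 0.42 (SE 0.07, 95% interval 0.24 to 0.60, adjusted p = 0.0131 from limma). From 6526 to 8858 reads a library stood behind these values.

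Within a library, the log2 ratio of SLC1A5 to SLC1A4 does not move when the whole library is scaled by 1 factor, although quantile normalization can move it. It was 0.93 and 0.97 in control and 0.57 and 0.60 in GNA13-deficient libraries, a shift of -0.36 where replicates differed by 0.04 at most. SLC1A4 therefore gained on SLC1A5 in both libraries labelled GNA13-deficient. The exact two-sided permutation test gave p = 0.333, the smallest that 2 libraries against 2 can give, here and for each of the 6 ratios compared, so that none could pass.

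The 3 glutamine carriers of the SLC38 family at the plasma membrane went separate ways. SLC38A5 (SNAT5, chrX:48316920-48328648, minus strand), which moves glutamine, histidine, asparagine and serine in either direction, was at 11.21 and 11.41 in control and 11.91 and 12.01 in GNA13-deficient libraries. Its reads went from 2330 and 2766 to 3740 and 3834, with no overlap. The difference was 0.65 (SE 0.09, 95% interval 0.42 to 0.87, adjusted p = 0.00733 from limma), the largest among the transporters after SLC1A4. SLC38A2 (SNAT2, chr12:46751971-46766556, minus strand), the carrier that many cells induce when amino acids run short, was at 12.68 and 12.54 in control and 12.38 and 12.33 in GNA13-deficient libraries. Both of the latter lay under both controls. The difference was -0.25 (SE 0.07, 95% interval -0.43 to -0.08, adjusted p = 0.0473 from limma), close to the threshold. With each library centred on its median the SLC38A2 difference was -0.04 (adjusted p = 0.620), and with scaling to the total of mapped reads, chosen after seeing the data, it was -0.30 (adjusted p = 0.0557), so that this 1 call depended on the scaling.

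SLC38A1 (SNAT1, chr12:46576846-46663800, minus strand), near SLC38A2 on chromosome 12, had the most reads of the 3. It stood at 14.00 and 13.94 in control and at 14.13 and 13.95 in GNA13-deficient libraries, from 14742 to 17448 reads. The second GNA13-deficient library lay between the controls, and the difference was 0.07 (SE 0.08, 95% interval -0.14 to 0.29, adjusted p = 0.562 from limma). The interval allows a rise of up to 0.29 and a fall down to -0.14, so an equal level was not shown. The log2 ratio of SLC38A1 to SLC38A2 was 1.32 and 1.40 in control and 1.75 and 1.62 in GNA13-deficient libraries, a shift of 0.32. That of SLC38A5 to SLC38A1 was -2.79 and -2.53 against -2.22 and -1.94, a shift of 0.58. In both ratios the gap between genotypes, 0.22 and 0.31, was larger than that between replicates, at most 0.13 and 0.28. Among these 3 carriers the balance thus moved from SLC38A2 towards SLC38A5 in both libraries labelled GNA13-deficient.

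The CD98 heavy chain and its leucine carrier rose together. SLC3A2 (chr11:62623476-62656352, plus strand) was at 12.44 and 12.55 in control and 12.75 and 12.83 in GNA13-deficient libraries, without overlap. Its difference was 0.30 (SE 0.07, 95% interval 0.13 to 0.47, adjusted p = 0.0278 from limma). SLC7A5 (LAT1, chr16:87863629-87903113, minus strand) was at 13.64 and 13.78 in control and at 14.06 in both GNA13-deficient libraries, a difference of 0.36 (SE 0.07, 95% interval 0.17 to 0.55, adjusted p = 0.0239 from limma). Under quantile normalization both kept their direction at a smaller size, with 0.18 and adjusted p = 0.0694 for SLC3A2 and 0.18 and adjusted p = 0.0568 for SLC7A5. The pseudogene SLC7A5P1, a near copy that could share reads with SLC7A5, held 11 to 15 reads a library against 12528 to 16691.

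The log2 ratio of SLC7A5 to SLC3A2 was 1.20 and 1.23 in control and 1.31 and 1.24 in GNA13-deficient libraries. The shift of 0.06 was under the gap between replicates, 0.07. Per kilobase of the longest transcript, which allows levels of different genes to be set side by side, SLC3A2 was at 1951 and 2105 normalized reads in control and 2430 and 2556 in GNA13-deficient libraries. Its 5 light chains that passed the filter summed to 3306 and 3582 in control and to 4109 and 4076 in GNA13-deficient libraries. Light chain per heavy chain was 1.69 and 1.70 in control and 1.69 and 1.59 in GNA13-deficient libraries, so that the total of the light chains kept close to SLC3A2.

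Within that total the light chains differed. SLC7A6 (y+LAT2), which exchanges arginine and lysine for neutral amino acids, fell by 0.45 on the log2 scale (SE 0.08, adjusted p = 0.0158 from limma), from 2343 and 2275 reads to 1748 and 1479. With median centring the SLC7A6 difference was -0.24 and did not pass (adjusted p = 0.0514). SLC7A7 (y+LAT1), with the same kind of exchange, fell by 1.12 (SE 0.11, adjusted p = 0.00339 from limma), from 367 and 418 reads to 178 and 166. SLC7A8 (LAT2) had 3 and 4 reads in control and 0 and 1 in GNA13-deficient libraries, at or near the floor of 3 reads, and SLC7A10 was at 0 in all 4. SLC7A5 made up 84.6% and 86.1% of the light chain reads per kilobase in control and 91.5% and 92.2% in GNA13-deficient libraries. These shares use the longest transcript of each gene and were not tested.

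**Figure D2:**
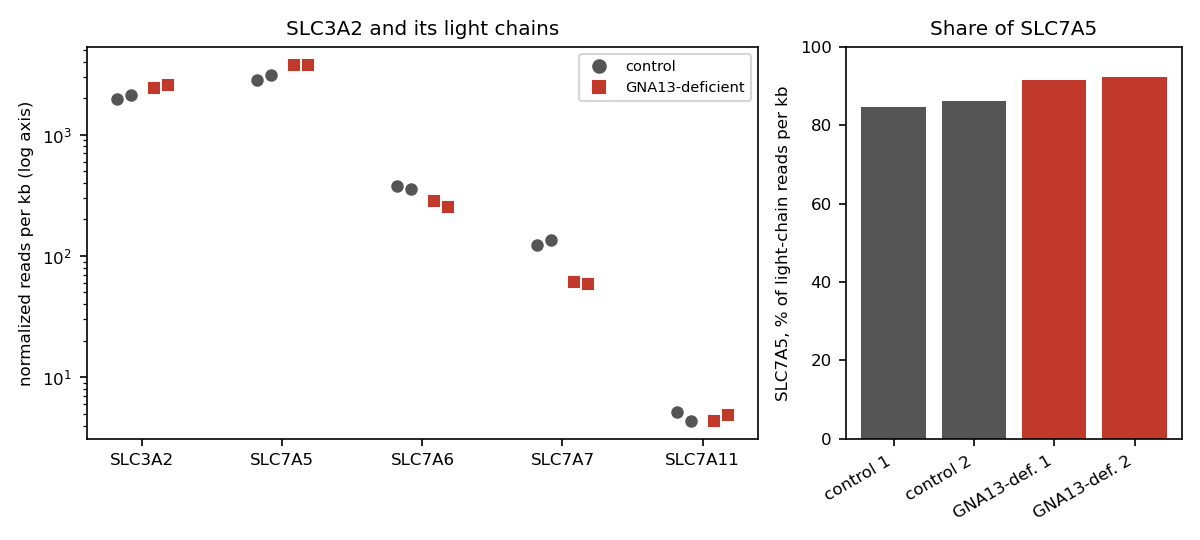
Left, normalized reads per kilobase on a log axis of SLC3A2 and of 4 light chains in each control (circles) and GNA13-deficient (squares) library, with SLC7A8, near 0, left out. Right, the share of SLC7A5 in the summed reads per kilobase of the 5 light chains tested, as a bar for each library from 0 to 100%, at 84.6% and 86.1% in control and 91.5% and 92.2% in GNA13-deficient libraries.

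SLC7A11 (xCT, chr4:139085251-139163503, minus strand), which imports cystine for glutathione synthesis, was barely present. It had 49 and 43 reads in control and 41 and 44 in GNA13-deficient libraries. The exact Poisson 95% intervals, which cover counting error only, ran from 29.4 to 64.8 reads over the 4 libraries and overlapped throughout. The difference was -0.04 (SE 0.26, 95% interval -0.70 to 0.62, adjusted p = 0.932 from limma), and the interval leaves room for a difference of up to 0.70 in size, so that an equal level was not shown. The log2 ratio of SLC7A11 to SLC3A2 was -6.80 and -7.14 in control and -7.36 and -7.26 in GNA13-deficient libraries, and its shift of -0.34 was no larger than the gap between the controls, 0.35. Under quantile normalization the shift turned, since the difference was then 0.40 for SLC7A11 and 0.18 for SLC3A2.

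SLC7A1 (CAT1, chr13:30083551-30169825, minus strand), the carrier of arginine and lysine, rose. It was at 12.40 and 12.48 in control and 12.96 and 12.88 in GNA13-deficient libraries, with no overlap and with 5304 to 7770 reads a library. The difference was 0.48 (SE 0.06, 95% interval 0.31 to 0.64, adjusted p = 0.00716 from limma). Its log2 ratio to SLC7A5 was -1.24 and -1.30 in control and -1.10 and -1.19 in GNA13-deficient libraries, a shift of 0.12 in which the genotypes lay only 0.05 apart. SLC38A9 (chr5:54921673-55069022, minus strand), the lysosomal member, was at 9.32 and 9.26 in control and 9.32 and 9.18 in GNA13-deficient libraries, from 538 to 626 reads. The genotypes overlapped, and the difference was -0.04 (SE 0.08, 95% interval -0.26 to 0.18, adjusted p = 0.758 from limma).

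**Figure D3:**
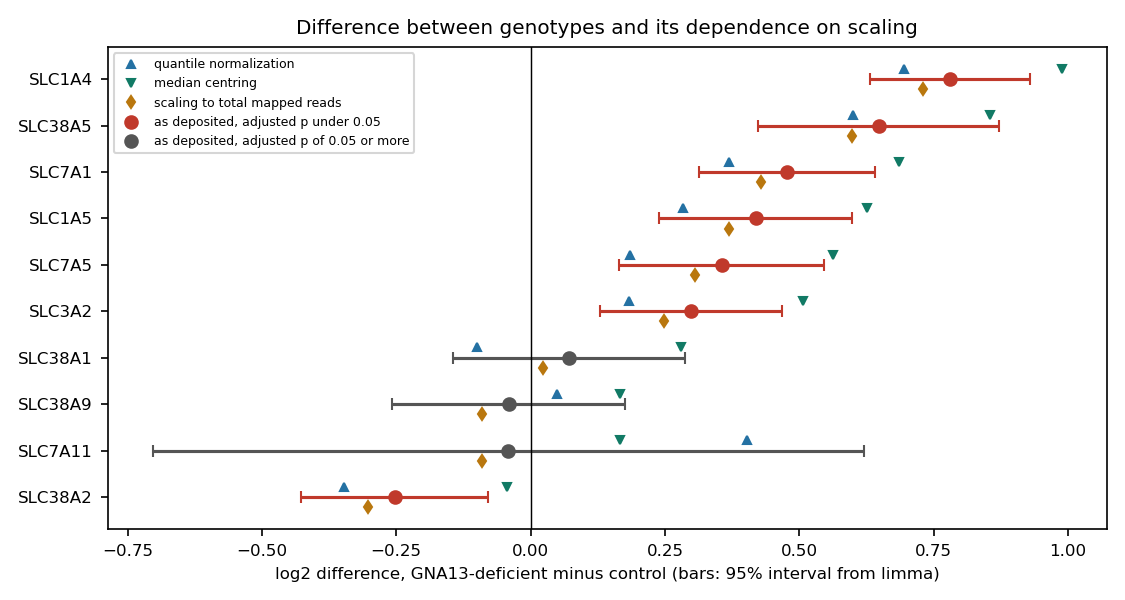
Log2 difference of each transporter, GNA13-deficient minus control (horizontal axis), as deposited with its 95% interval from limma (circles and bars, red for an adjusted p under 0.05), and after quantile normalization, median centring or scaling to the total of mapped reads. The 6 transporters that rose stay to the right of 0 under each scaling, from 0.18 for SLC3A2 and SLC7A5 under quantile normalization to 0.99 for SLC1A4 under median centring, whereas SLC38A1, SLC38A9 and SLC7A11 cross 0.

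The scaling of the libraries moved all genes together. Centring each library on its median took the median difference of all genes from -0.02 to 0.18 and that of the 10 transporters from 0.33 to 0.54, and the share of higher genes among those called from 44.03% to 69.14%. Without the filter on low values, or without the variance trend, SLC1A4 alone of the 10 passed, as the count over all genes fell from 5037 to 1999 and 2718. With 1 library left out, limma called 0 of 16945 genes and 0 transporters, with the lowest adjusted p of a transporter between 0.0708 and 0.0790. At an unadjusted p under 0.05 the transporters numbered 6 without the first control, 7 without the second, 5 without the first GNA13-deficient library and 4 without the second, against 7 with all 4 libraries.

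Taken per kilobase of the longest transcript, the 10 transporters summed to 12851 and 13524 normalized reads in control and to 16436 and 16469 in GNA13-deficient libraries. SLC7A5 had the largest share of this sum, at a mean of 22.3% in control and 22.8% in GNA13-deficient libraries, followed by SLC1A5 at 18.3% and 19.6%, SLC3A2 at 15.4% and 15.2%, and SLC38A1 at 15.0% and 12.7%. Over the 4 libraries SLC7A5 overlapped SLC1A5 in level, SLC1A5 overlapped SLC3A2 and SLC3A2 overlapped SLC38A1, although within each library SLC7A5 stood above SLC1A5 and SLC1A5 above SLC3A2. SLC38A2 held 9.90% and 6.64%, SLC38A5 7.24% and 9.09%, SLC7A1 5.74% and 6.41%, and SLC1A4 4.72% and 6.50%. Within control SLC38A2 stood above SLC38A5 in both libraries, and within GNA13-deficient libraries SLC38A5 stood above SLC38A2 in both. SLC38A9 held 1.35% and 1.05%, and SLC7A11 0.0363% and 0.0282%. Of the 9 neighbouring pairs in this order, only SLC38A1 over SLC38A2, SLC1A4 over SLC38A9 and SLC38A9 over SLC7A11 did not overlap over the 4 libraries. The order rests on the length used. Per kilobase of the median transcript length SLC7A5 held 7.42% and 8.04% in control and SLC38A1 23.6% and 22.3%, and SLC38A2, at 13.9% and 13.7% in GNA13-deficient libraries, stayed above SLC38A5, at 9.06% and 9.99%.

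**Figure D4:**
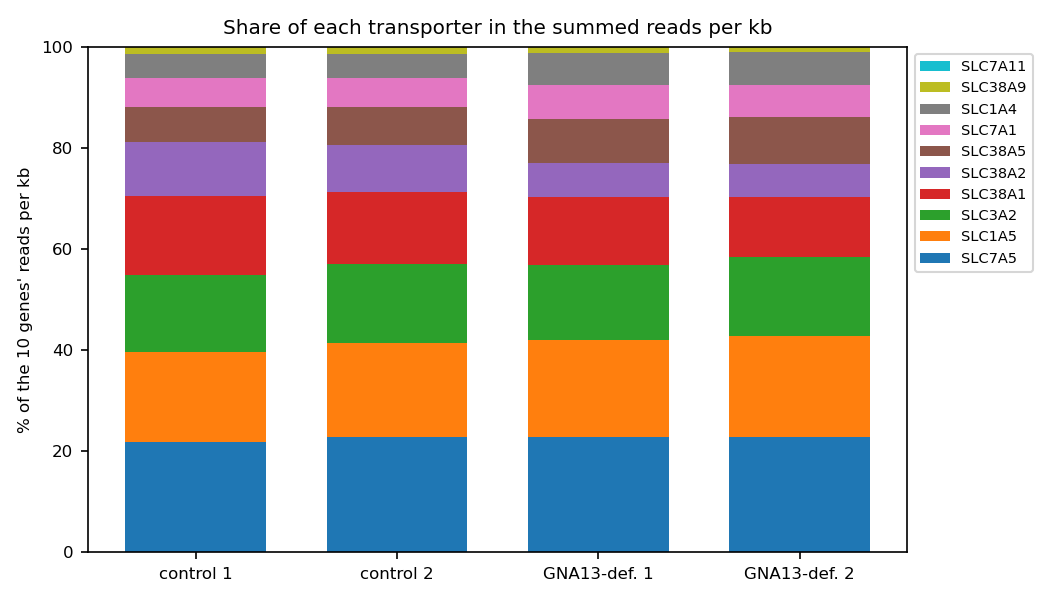
Share of each transporter in the summed normalized reads per kilobase of the 10, as a stacked bar from 0 to 100% for each library. SLC38A2 narrows from a mean of 9.90% in control to 6.64% in GNA13-deficient libraries, while SLC1A4 widens from 4.72% to 6.50% and SLC38A5 from 7.24% to 9.09%, and SLC7A11, at under 0.05%, is too thin to see.

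The other amino acid transporters were counted in the same fit. For this list and those that follow, the share of all genes tested that passed was 13.1% higher and 16.6% lower. Of 33 further plasma membrane carriers, 14 passed the filter, 1 was higher and 6 were lower, with a median difference of -0.36 against -0.02 for all genes. Several of the 14 had at most 6 reads in any library, so that this median rests in part on genes near the floor. SLC1A1, a glutamate, aspartate and cysteine carrier, rose by 1.11 (SE 0.17, adjusted p = 0.00982 from limma), from 85 and 88 reads to 167 and 189. The falls included the light chains SLC7A6, SLC7A7 and SLC7A8 described above, of which SLC7A8, with at most 4 reads, did not pass with a pseudocount of 1 (adjusted p = 0.0913). Of 15 lysosomal and vesicular carriers, 12 passed the filter, 2 were higher and 3 lower, with a median of -0.21. The 3 lower include SLC29A3, a nucleoside carrier and not an amino acid carrier, which fell by 0.71 (adjusted p = 0.0137 from limma). SLC36A4, a carrier of proline and tryptophan, had 57 and 59 reads in control and 4 and 3 in GNA13-deficient libraries, a difference of -4.00 (SE 0.34, adjusted p = 0.00256 from limma). SLC66A1 (PQLC2), which exports cationic amino acids from the lysosome, rose by 0.92 (SE 0.16, adjusted p = 0.0141 from limma), from 90 and 85 reads to 162 and 153. SLC15A4, a histidine and peptide carrier of the lysosome, rose by 0.73 (SE 0.06, adjusted p = 0.00222 from limma), with 855 and 889 reads in control and 1432 and 1323 in GNA13-deficient libraries.

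Genes that sense amino acids at the lysosome are the Rag GTPases, Ragulator, GATOR, KICSTOR and mTORC1 subunits with their sensors. Of 39 genes, all tested, 5 were higher and 4 lower, where 29.7% of all genes tested passed in either direction, and the median difference was -0.06. The largest differences were falls in 3 sensors or sensor relatives. SESN1, a sestrin that restrains mTORC1 through GATOR2, fell by 1.61 (SE 0.10, adjusted p = 0.00158 from limma), from 543 and 605 reads to 175 and 182. SESN3, of the same family, fell by 1.57 (SE 0.14, adjusted p = 0.00258 from limma), from 256 and 273 reads to 84 and 85. SAMTOR (C7orf60), the S-adenosylmethionine sensor, fell by 0.89 (SE 0.10, adjusted p = 0.00479 from limma), from 425 and 420 reads to 213 and 220. In each of the 3 genes the genotypes did not overlap. The remaining sestrin, SESN2, went the other way. It rose by 0.36 (SE 0.07, adjusted p = 0.0231 from limma), from 575 and 555 reads to 711 and 673. Over the 120 tested genes of all these lists outside the 10, 20 were higher and 26 lower, and without the filter on low values 9 and 11. Among the genes named, SLC7A6, EIF2AK4, MNT and NQO1 passed neither without the filter nor without the variance trend. SLC1A1 did not pass without the filter, and for SESN2 and SLC29A3 these settings are not given here.

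The genes of the amino acid response, which ATF4 drives when the kinase GCN2 senses uncharged tRNA, divided. Of 23 genes 21 were tested, 5 were higher and 2 lower, and the median difference was 0.24. ATF4 itself was at 13.05 and 12.89 in control and 13.18 and 13.24 in GNA13-deficient libraries, a difference of 0.24 that did not pass (SE 0.07, adjusted p = 0.0709 from limma). ATF4 did pass with the filter at the median level (adjusted p = 0.0248), median centring (0.45, adjusted p = 0.0130), the replicate block (adjusted p = 0.0349) and voom weights (adjusted p = 0.0433), and its difference was 0.10 (adjusted p = 0.402) under quantile normalization. ASNS, the asparagine synthetase and a standard ATF4 target, had a difference of -0.10 (SE 0.06, adjusted p = 0.294 from limma). PHGDH, the entry enzyme of serine synthesis, rose by 0.89 (SE 0.07, adjusted p = 0.00238 from limma), and DDIT4, an inhibitor of mTORC1, by 0.67 (SE 0.09, adjusted p = 0.00728 from limma). EIF2AK4, which encodes GCN2, fell by 0.52 (SE 0.08, adjusted p = 0.00956 from limma).

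In the MYC network, 5 of 11 tested genes were lower and 6 did not pass in limma, with a median difference of -0.32. MYC was at 13.79 and 13.77 in control and 13.22 and 13.23 in GNA13-deficient libraries, a difference of -0.55 (SE 0.06, adjusted p = 0.00358 from limma). MXI1 and MNT, which encode MAX partners that oppose MYC, fell as well, by 1.02 (SE 0.06, adjusted p = 0.00132 from limma) and by 0.53 (SE 0.09, adjusted p = 0.0152 from limma). With median centring the MNT difference was -0.33 and did not pass (adjusted p = 0.0517). MYC mRNA was thus lower in the libraries labelled GNA13-deficient. MYC protein and MYC activity were not measured here, and the mRNA level alone does not give them. Any part of MYC in the transporter differences was not tested.

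Around SLC7A11, the genes of NRF2 and glutathione gave 6 higher and 3 lower of 17 tested, with a median difference of 0.18. NFE2L2, which encodes NRF2, had a difference of 0.18 that did not pass (SE 0.07, adjusted p = 0.130 from limma), except under median centring (0.39, adjusted p = 0.0134). NQO1, a quinone reductase and NRF2 target, fell by 0.61 (SE 0.16, adjusted p = 0.0422 from limma), a call that was lost under quantile normalization (-0.28, adjusted p = 0.266) and median centring (-0.40, adjusted p = 0.117). GGT1, which breaks down extracellular glutathione and so frees cysteine for uptake, fell by 2.34 (SE 0.25, adjusted p = 0.00396 from limma), from 167 reads in both controls to 38 and 26.

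**Figure D5:**
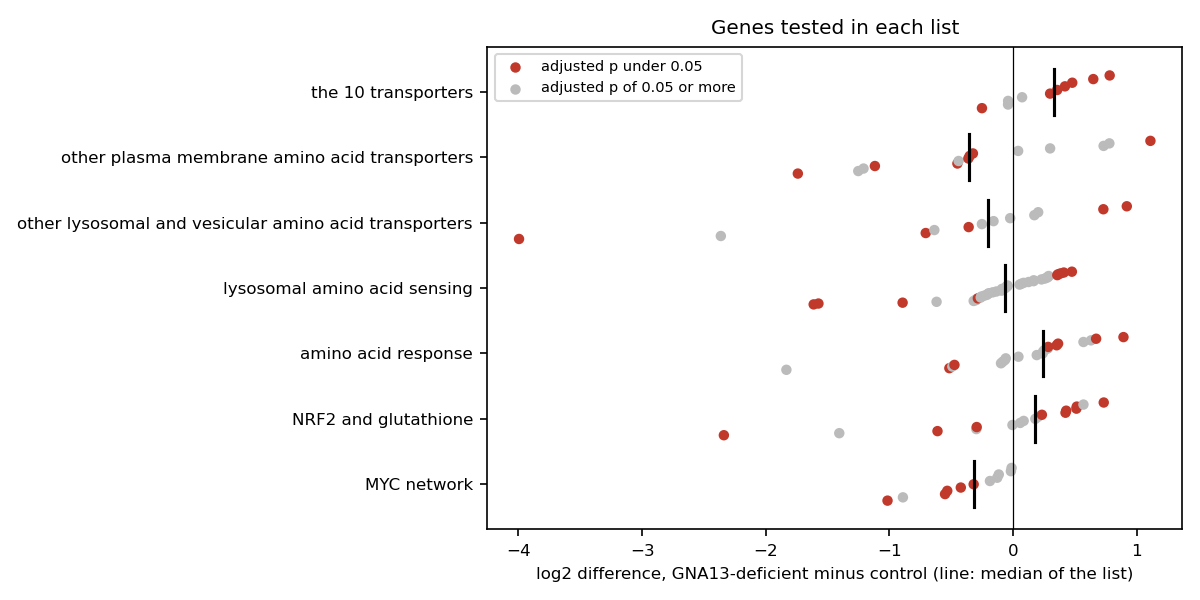
Log2 difference, GNA13-deficient minus control (horizontal axis), of every tested gene in 7 lists, as 1 point per gene, red for an adjusted p under 0.05 in limma, with a line at the median of the list. The median of the 10 transporters lies at 0.33 and that of the other plasma membrane carriers at -0.36, and the lowest point is SLC36A4 at -4.00.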

How the data were processed

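RNA of 2 control and 2 GNA13-deficient libraries was sequenced with a stranded poly(A) kit. Reads were mapped by the authors to hg19 using STAR, and the submitters' processing notes name HTSeq. The annotation, the strand setting and the method of normalization are not given in the sources used here. The values the authors deposited are normalized reads on the log2 scale for 25066 genes, with totals of mapped reads in another unit beside them. The totals were used for depth and for checking the recovered reads. They also entered the scaling to total mapped reads and the library sizes behind the voom weights. Groups follow the sample titles.

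From there, genes that exceeded the lowest value of the list in 2 or more libraries were fitted with limma 3.58.1 in R 4.3.3 (lmFit, eBayes with a mean-variance trend, genotype as the only term, 2 residual degrees of freedom), on the values as deposited and without a pseudocount. P values were adjusted by Benjamini-Hochberg over all 16945 genes, and those under 0.05 were called. All values up to 400 reads stepped in whole reads (within 0.157 reads), and the recovered reads summed to at least 99.998% of the totals. The 6 within-library ratios were compared by two-sided exact permutation tests. Levels per kilobase used the longest transcript in GENCODE 44 lifted to GRCh37, which also gave gene coordinates. Promoter windows came from RefSeq. Counting intervals were exact Poisson intervals at 95%. On simulated libraries of 2 against 2 with 16578 genes tested, the fit recovered 80 of 100 genes changed by 0.5 on the log2 scale and 96 of 100 changed by 1. The simulated spread (dispersion 0.00113) was taken from the 2 control libraries, and the changed genes all had a mean above 100 reads. Recovery under the spread of separate cultures was not tested.

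The transporters, the 8 context lists and the 4 marker lists were chosen with earlier results of these data known. By a fixed rule, the genes named were all 10 transporters, GNA13, the 3 genes of each list with the largest difference and an adjusted p under 0.05, and ATF4, MYC, NFE2L2, ASNS and the light chains. SLC7A5P1, SESN2 and SLC29A3 were named after their values were seen. Of the genes so chosen, 1 is not reported here. The alternatives tried were a filter at the median level, no filter, pseudocounts of 1 and 10, quantile normalization, median centring, the replicate number as a block, no variance trend, a robust variance prior, voom weights on recovered reads, leaving out each library and, for levels, the median transcript length. Scaling to total mapped reads was added after seeing the data.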

Additional observations from a re-analysis of the deposited data

How the results depend on the processing

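The 6 rises kept their sign under every setting tried, as did the fall of SLC38A2. Of the 6 transporters higher, 1 remained without the filter and 1 without the variance trend. The count of transporters lower went from 1 to 0 without the filter, without the trend, under median centring and under scaling to total mapped reads, which was added after seeing the data. With 1 library left out, both counts were 0, the range being 0 to 0, and 5257 to 5600 genes had an unadjusted p under 0.05. There the lone library is assumed to vary like the other genotype. The transporters' median was 0.54 under centring and 0.26 to 0.39 with 1 library left out. Of the 120 other list genes tested, 20 were higher and 26 lower. Higher and lower numbered 9 and 11 without the filter, 7 and 11 without the trend, 37 and 12 under centring, and 0 and 0 with any library left out. Signs turned for SLC38A1 under quantile normalization (-0.10) and without the first GNA13-deficient library (-0.0155, range -0.0155 to 0.16). They turned for SLC38A9 under quantile normalization (0.0497), centring (0.17) and without the second GNA13-deficient library (0.0305, range -0.11 to 0.0305). For SLC7A11 they turned under quantile normalization (0.40), centring (0.17), without the first control (0.077) and without the first GNA13-deficient library (0.0435, range -0.16 to 0.077), and for ASNS under centring (0.11). The share of SLC7A5 in control was 7.73% with the median transcript length. The causes were not tested. The share of higher genes among those called was 44.03% as deposited, 69.14% under centring, 51.83% under quantile normalization, 37.26% under scaling to total mapped reads and 54.59% for genes at or above the median level. The labels give both genotypes replicates 1 and 2 but do not pair them. Deviations of same-numbered libraries correlated at 0.453 over 8473 genes, and with the replicate block 6616 genes were called, with 6 transporters higher and 1 lower. Depth limited SLC7A11 most, at 41 to 49 reads.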

Other observations

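Genes that ubiquitinate or traffic amino acid and glucose carriers were also listed, and of 8 tested, 2 were higher and 3 lower, with a median difference of -0.18. NEDD4, a ubiquitin ligase of membrane proteins, rose by 1.01 (SE 0.08, adjusted p = 0.00204 from limma), from 519 and 493 reads in control to 985 and 962 in GNA13-deficient libraries. RNF5, a ubiquitin ligase known to target SLC1A5 and SLC38A2, fell by 0.52 (SE 0.13, adjusted p = 0.0377 from limma), from 1164 and 1420 reads to 798 and 915. With median centring the RNF5 difference was -0.31 and did not pass (adjusted p = 0.166). TXNIP, an arrestin-like protein that removes glucose carriers from the surface, fell by 0.47 (SE 0.08, adjusted p = 0.0132 from limma), from 8841 and 8211 reads to 6220 and 5544. RNF5 and TXNIP passed neither without the filter on low values nor without the variance trend. In each of the 3 the genotypes did not overlap, and the amount of any transporter at the cell surface was not measured.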
